A study of Mus musculus with 10 samples.

Results

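The genes described here are 10 genes of the heat shock response, selected by symbol from the gene table of the series: the HSP110 genes Hspa4l, Hspa4 and Hsph1, the HSP70 genes Hspa8, Hspa1a and Hspa1b, the J-domain cochaperone gene Dnajb1, the HSP90 gene Hsp90aa1, the small heat shock protein gene Hspb1 and the transcription factor gene Hsf1. All 10 were found among 32132 genes with a count, each on 1 line of the table, and all 10 passed the filter on low counts, so no member was left out. Expression was measured by poly(A) RNA sequencing in whole colon of adult wild-type C57BL/6 mice, in 5 libraries of mice given phosphate-buffered saline (PBS) and 5 of mice given 4-HDHA, an oxidised lipid made from docosahexaenoic acid (DHA) by adding a hydroxyl group. Both groups drank 3% dextran sulfate sodium (DSS), which injures the colon epithelium, for 7 days, and once a day they were injected into a vein with 200 ul for each 20 g of mouse, of PBS alone or of 4-HDHA in PBS at a strength the labels write as 5 um. The series has no mice without DSS, so levels in uninjured colon are not known here. The labels number the colons but do not say separately that each library is another animal, so the spread between libraries may in part be technical.

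Heat shock proteins are chaperones that keep other proteins folded. HSP70 proteins hold unfolded segments in a cycle driven by ATP, J-domain proteins deliver clients and start that cycle, HSP110 proteins release the spent nucleotide so that it can begin again, HSP90 acts later on kinases and steroid receptors, and small heat shock proteins hold aggregating proteins without ATP. HSF1 drives the inducible members by binding heat shock elements, arrays of inverted GAA units in their promoters. In the gut these chaperones are known for their induction in epithelium under injury and for their abundance in dividing cells, and Hspb1 is also abundant in smooth muscle.

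The members were chosen with their difference between 4-HDHA and PBS in these libraries already known. Their differences are therefore a description with no test, and none of them supports another. Hsf1 encodes no heat shock protein, so the name of the family covers 9 of the 10. Levels are given as CPM, counts scaled to a common library size with TMM factors, and differences as log2 fold changes of 4-HDHA over PBS with their standard error (SE) from edgeR.

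Promoter sequences are shown for the inducible HSP70 pair, for Hsph1 and for Hspa4l, because the first 3 are classic targets of HSF1 and Hspa4l is the member whose groups lay apart most evenly. RefSeq promoters on GRCm38.p6, from 250 bases before to 50 bases after the transcription start, were on hand for 7 of the 10 members, and Hspa8, Hsp90aa1 and Hsf1 are named only. Each is written 5′ to 3′ on the strand of the gene, and capitals mark each pair of inverted heat shock units, GAANNTTC or TTCNNGAA, both of which read the same on either strand. Hspa1a lies at chr17:34972107-34972406 and Hspa1b at chr17:34959189-34959488, both on the minus strand, Hsph1 at chr5:149636287-149636586 on the minus strand and Hspa4l at chr3:40745363-40745662 on the plus strand.
Hspa1a: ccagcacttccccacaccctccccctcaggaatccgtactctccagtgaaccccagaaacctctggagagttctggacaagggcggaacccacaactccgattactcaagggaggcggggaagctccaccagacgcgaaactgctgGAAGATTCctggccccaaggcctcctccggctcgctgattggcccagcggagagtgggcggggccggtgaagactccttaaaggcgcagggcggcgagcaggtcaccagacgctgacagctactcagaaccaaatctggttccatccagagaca
Hspa1b: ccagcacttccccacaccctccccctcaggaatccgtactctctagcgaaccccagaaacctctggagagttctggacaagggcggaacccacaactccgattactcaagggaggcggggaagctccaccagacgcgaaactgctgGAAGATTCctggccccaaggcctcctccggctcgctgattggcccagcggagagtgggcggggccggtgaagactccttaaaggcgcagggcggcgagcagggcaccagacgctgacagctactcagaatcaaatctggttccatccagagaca
Hsph1: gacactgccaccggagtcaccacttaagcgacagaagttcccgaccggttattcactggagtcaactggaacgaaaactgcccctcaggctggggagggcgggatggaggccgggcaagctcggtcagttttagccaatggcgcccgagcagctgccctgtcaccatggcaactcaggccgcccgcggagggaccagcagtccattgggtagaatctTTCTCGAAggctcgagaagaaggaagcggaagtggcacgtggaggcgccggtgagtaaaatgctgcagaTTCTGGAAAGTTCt
Hspa4l: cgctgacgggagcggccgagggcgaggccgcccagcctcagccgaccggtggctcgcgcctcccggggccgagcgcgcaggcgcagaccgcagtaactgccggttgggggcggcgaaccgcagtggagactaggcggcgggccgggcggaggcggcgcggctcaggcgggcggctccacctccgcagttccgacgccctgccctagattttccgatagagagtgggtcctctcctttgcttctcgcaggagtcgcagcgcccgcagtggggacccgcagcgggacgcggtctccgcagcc

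The Hspa1a and Hspa1b windows had the same base at 296 of 300 positions, and both held 1 pair of units beginning 104 bases before the start. The printed Hsph1 window held 3 pairs, and 2 of them overlapped as a run of 3 units, TTCNNGAANNTTC. By the start of that window the run began at position 37 of the transcript, with its first base counted as 1. By another RefSeq start of Hsph1, with its window at chr5:149636266-149636565, the same run began at position 16. The Hspb1 window, not printed, held 2 pairs, the first 117 bases before the start. No pair was found in the windows of Hspa4l, Hspa4 or Dnajb1, which says only that these letters are not in them. The Hspa4l window starts at 40745363 and the counted gene at 40745382, so most of that window lies inside the gene. Sequence further upstream of that gene start was not searched. A Dnajb1 window at 83608298 to 83608597 lies wholly inside its gene, which starts at 83608193. Over 32851 promoter windows of the same length, 15.1% held at least 1 pair and 0.603% held 3 units in either orientation (GAANNTTCNNGAA or TTCNNGAANNTTC). A match to these letters is a description and does not show that HSF1 binds there.

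Of the 10 members, 9 had a negative log2 fold change and Hspb1 a positive one, with a median of -0.79, while over the 19615 genes tested the median was 0.01 and 49% were below 0. In edgeR's quasi-likelihood test 0 of the 10 passed a Benjamini-Hochberg adjusted p of 0.05, where 0% of all genes did. At an unadjusted p under 0.05 there were 8 of the 10, where 14.8% of all genes were, and DESeq2 called 3, where it called 1.71%. Limma called 0 genes in all, with voom and on FPKM. Since this contrast was known when the members were chosen, these counts are not read as a result. Leaving out any 1 library, or changing the scaling, the filter or the test, changed the sign of no member.

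**Figure D1:**
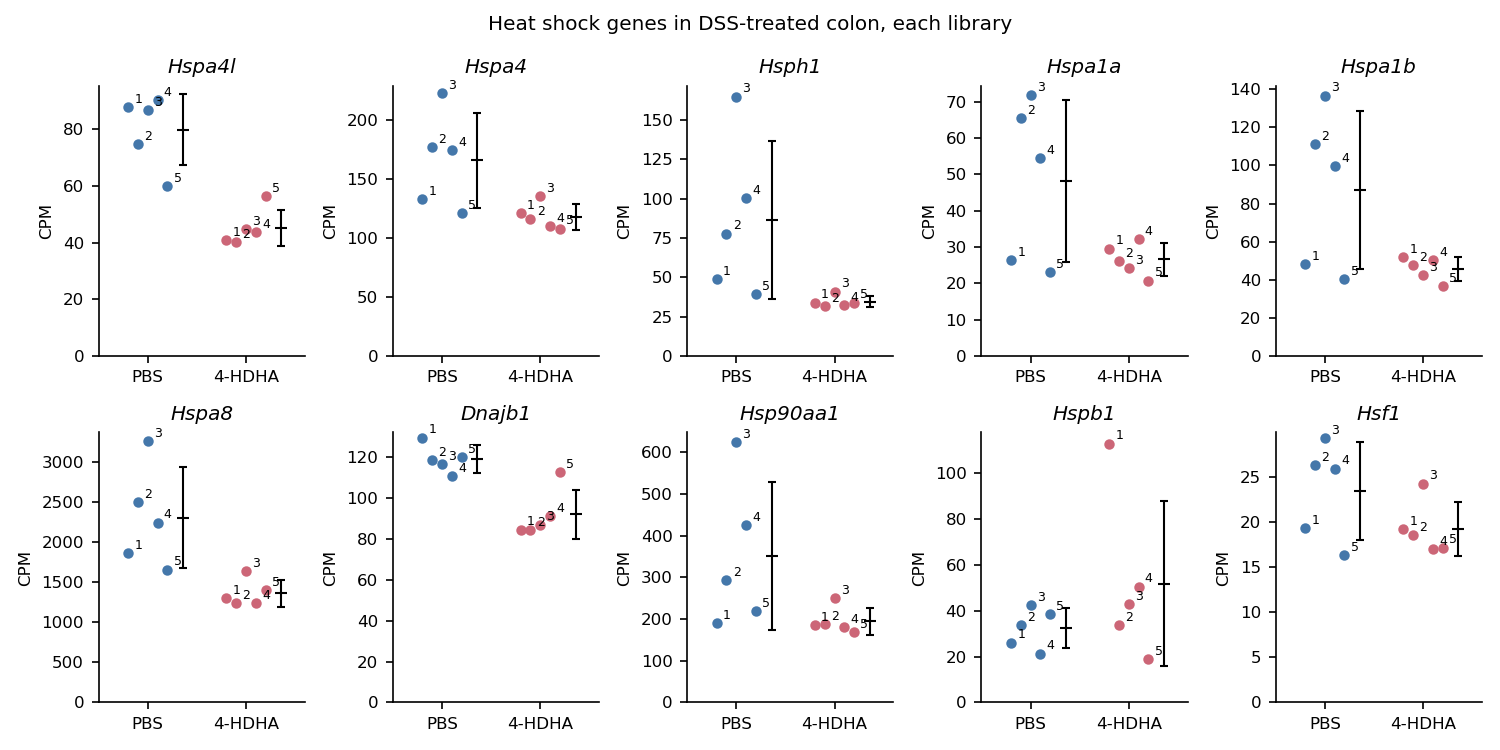
CPM (linear axes from 0) of the 10 members in each of the 5 PBS and 5 4-HDHA libraries of DSS-treated colon, with the replicate number beside each point and the group mean and SD as a black bar. PBS replicates 2, 3 and 4 lie above every other library for Hspa1a, Hspa1b, Hsph1 and Hsp90aa1, whereas Hspa4l is higher in every PBS library than in any 4-HDHA library and Hspb1 is highest in 4-HDHA replicate 1.

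Among the HSP110 genes, nucleotide exchange factors for HSP70, Hspa4l (chromosome 3, 40745382 to 40796103, plus strand, mm10) differed most evenly between the groups. Its level was 87.9, 74.9, 86.6, 90.2 and 59.9 CPM in PBS replicates 1 to 5, and 41.0, 40.2, 44.6, 43.6 and 56.3 CPM in 4-HDHA replicates 1 to 5. The groups did not overlap, but PBS replicate 5 and 4-HDHA replicate 5 came close. The means were 79.9 ± 12.7 and 45.1 ± 6.50 CPM (mean ± SD of 5 libraries per group), and the log2 fold change was -0.82 (SE 0.14). With single libraries left out the log2 fold change ranged from -0.92 to -0.78.

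Hsph1, the stress-inducible HSP110 (chromosome 5, 149614287 to 149636376, minus strand), had the most negative log2 fold change of the members, and its spread lay in the PBS group. PBS replicates 1 to 5 had 49.0, 77.8, 165, 100.4 and 39.3 CPM, and 4-HDHA replicates 1 to 5 had 33.9, 31.5, 40.9, 32.5 and 33.9 CPM. The 4-HDHA libraries sat close together, PBS replicates 1 and 5 lay near them, and PBS replicates 2, 3 and 4 stood above; the groups overlapped only through PBS replicate 5 and 4-HDHA replicate 3. The means were 86.3 ± 50.1 and 34.5 ± 3.73 CPM (mean ± SD of 5 libraries per group), and the log2 fold change was -1.32 (SE 0.33), or -0.95 without PBS replicate 3. Hspa4, the constitutive HSP110 (chromosome 11, 53259814 to 53300457, minus strand), had 133, 177, 223, 175 and 121 CPM with PBS and 121, 116, 135, 109.9 and 108 CPM with 4-HDHA, a log2 fold change of -0.49 (SE 0.16). PBS replicate 3 was again the highest library, and PBS replicates 1 and 5 lay within the 4-HDHA range.

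Hspa8, the constitutive cytosolic HSP70 (chromosome 9, 40800984 to 40810087, plus strand), was by far the most abundant member. It had 1865, 2499, 3266, 2245 and 1658 CPM with PBS and 1306, 1236, 1644, 1238 and 1397 CPM with 4-HDHA. The lowest PBS library, replicate 5, was just above the highest 4-HDHA library, replicate 3. The means were 2306 ± 628 and 1364 ± 170 CPM (mean ± SD of 5 libraries per group), and the log2 fold change was -0.76 (SE 0.19). Small nucleolar RNA genes Snord14c, Snord14d and Snord14e, lie within it on the same strand.

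The inducible HSP70 genes Hspa1a and Hspa1b lie beside each other on the minus strand of chromosome 17 (34969190 to 34972156 and 34956436 to 34959238). Their longest open reading frames were the same at 99.4% of aligned bases, so reads may be shared or divided between them and each single value is uncertain. Hspa1b had between 1.56 and 1.91 times the counts of Hspa1a in every library. Hspa1b was at 48.4, 111, 137, 99.7 and 40.3 CPM in PBS replicates 1 to 5 and at 52.0, 47.7, 42.4, 50.2 and 36.7 CPM with 4-HDHA. PBS replicates 2, 3 and 4 were high, whereas PBS replicates 1 and 5 lay inside the range of the 4-HDHA libraries, so the groups overlapped. Hspa1a had the same shape, with 26.5, 65.4, 71.7, 54.4 and 23.0 CPM against 29.5, 26.2, 24.1, 32.2 and 20.7 CPM. Summed into 1 gene, the pair had 135 ± 63.7 CPM in the PBS group against 72.3 ± 10.5 CPM in the 4-HDHA group (mean ± SD of 5 libraries each), and the log2 fold change was -0.91; the single values were -0.86 (SE 0.31) and -0.93 (SE 0.31). Under limma voom with library quality weights both were -0.47. Gm20481, which was not among the genes tested, overlaps Hspa1a by 2225 bases on the opposite strand, and whether the counting used strand is not given in the sources used here.

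Dnajb1, the J-domain partner that HSF1 induces together with HSP70 (chromosome 8, 83608193 to 83612653, plus strand), did not share the high PBS libraries. It had 129.7, 119, 117, 111 and 120.0 CPM with PBS and 84.6, 84.5, 87.1, 91.5 and 113 CPM with 4-HDHA. The groups overlapped only because 4-HDHA replicate 5 exceeded PBS replicate 4. The means were 119 ± 6.90 and 92.1 ± 11.9 CPM (mean ± SD of 5 libraries per group), and the log2 fold change was -0.37 (SE 0.10). Its spread within groups was small, at percentile 6.56 of all genes tested, against 69.5 for Hsph1.

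Hsp90aa1, the inducible cytosolic HSP90 (chromosome 12, 110690605 to 110702728, minus strand), followed Hsph1. It had 191, 293, 625, 426 and 219.6 CPM with PBS and 185, 187, 251, 181 and 169.6 CPM with 4-HDHA, a log2 fold change of -0.85 (SE 0.30). PBS replicates 3 and 4 were the 2 highest libraries and PBS replicates 1 and 5 lay within the 4-HDHA range. Without PBS replicate 3 the log2 fold change was -0.54, and with quality weights -0.50.

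Hsf1, the master regulator of the response (chromosome 15, 76477422 to 76501913, plus strand), differed little at the level of its own RNA. It had 19.3, 26.3, 29.3, 25.9 and 16.3 CPM with PBS and 19.2, 18.5, 24.2, 17.0 and 17.1 CPM with 4-HDHA, a log2 fold change of -0.28 (SE 0.18). The groups overlapped, with PBS replicate 5 the lowest of all 10 libraries. With quality weights the value was -0.18. RNA levels do not report the activity of HSF1, which is set largely on the protein.

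Hspb1, the small heat shock protein HSP25 of the mouse (chromosome 5, 135887919 to 135889563, plus strand), had the only positive log2 fold change among the members. It had 26.0, 33.8, 42.3, 21.3 and 38.5 CPM with PBS and 113, 33.8, 43.0, 50.5 and 18.9 CPM with 4-HDHA. The 4-HDHA group held both the highest and the lowest of the 10 libraries, replicates 1 and 5. The log2 fold change was 0.68 (SE 0.40), and 0.18 without 4-HDHA replicate 1.

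Whether the groups overlapped depended on the scale. With TMM factors, 2 of the 10 members, Hspa4l and Hspa8, had each 4-HDHA library below each PBS library, where 1.63% of all genes did, and 0 had the reverse, where 1.16% did. With library totals alone none of the 10 stood apart. On FPKM, the authors' values per length of gene model, Hspa4l and Dnajb1 did, Hspa4l by 4.22 in PBS replicate 5 against 4.16 in 4-HDHA replicate 5. The log2 CPM SD was larger with PBS than with 4-HDHA for 8 of the 10 members, all but Dnajb1 and Hspb1, where 55.1% of all genes had the larger SD with PBS. For Hsph1 the SD was 0.82 log2 units with PBS and 0.15 with 4-HDHA, and for Hspb1 it was 0.41 and 0.94.

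Levels were compared between genes per length, as FPKM. With PBS, Hspa8 had the highest level at 491 ± 178 FPKM, above Hsp90aa1 at 82.7 ± 48.6 FPKM (SD, n = 5 each) without overlap. Dnajb1 at 33.3 ± 2.51, Hspa1b at 28.9 ± 15.8, Hspb1 at 28.4 ± 9.0 and Hspa4 at 27.4 ± 9.09 FPKM lay within their spread of each other. Hspa1a at 15.1 ± 8.02, Hsph1 at 11.1 ± 7.30 and Hspa4l at 6.26 ± 1.27 FPKM followed, Hspa1a below Hspa4 by more than either SD but with overlapping libraries and the other two within 1 SD of the gene above, and Hsf1 at 2.99 ± 0.939 FPKM was lowest, below Hspa4l without overlap. With 4-HDHA the order was Hspa8 at 284 ± 51.6 FPKM, Hsp90aa1 at 44.5 ± 10.3 and Hspb1 at 44.5 ± 29.3, which did not differ beyond their spread, then Dnajb1 at 25.6 ± 3.03, Hspa4 at 19.1 ± 2.83, Hspa1b at 14.5 ± 1.99, Hspa1a at 7.98 ± 1.39, Hsph1 at 4.25 ± 0.716, Hspa4l at 3.49 ± 0.491 and Hsf1 at 2.41 ± 0.525 FPKM. Dnajb1 and Hspa4, the next after Hspb1, also lay within 1 SD of it, whose own SD was the largest relative to its mean. Among the neighbours below Hspb1, each pair of means differed by more than the larger of the 2 SDs. Hspb1 thus stood among Dnajb1, Hspa1b and Hspa4 with PBS and beside Hsp90aa1 with 4-HDHA, through 4-HDHA replicate 1 at 92.9 FPKM.

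How the members varied between libraries of the same group was not used in choosing them, and was tested on log2 CPM deviations from the group mean over all 45 pairs. Of these, 9 had an adjusted p under 0.05 for Pearson's r (exact two-sided permutation within groups, 14400 orders, Benjamini-Hochberg over the 45), all 9 positive and all among Hspa1a, Hspa1b, Hsph1, Hspa8, Hsp90aa1, Hspa4 and Hsf1. Among these 7 genes r ranged from 0.73 to 0.99 over 21 pairs, of which 12 did not pass. None of the 24 pairs with Hspa4l, Dnajb1 or Hspb1 passed for r, which ranged from -0.58 to 0.51. As a background, 1.19% of all pairs among 15486 genes averaging 1 CPM or more had an r of at least 0.88. That cutoff was the lowest r among the 9, so at least 9 of the 45 member pairs had to reach it. In all, 10 of the 45 (22.2%) did, among them Hspa1a with Hspa1b, which may share reads. Because the members set the cutoff, the comparison of these shares is a description with no test.

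**Figure D2:**
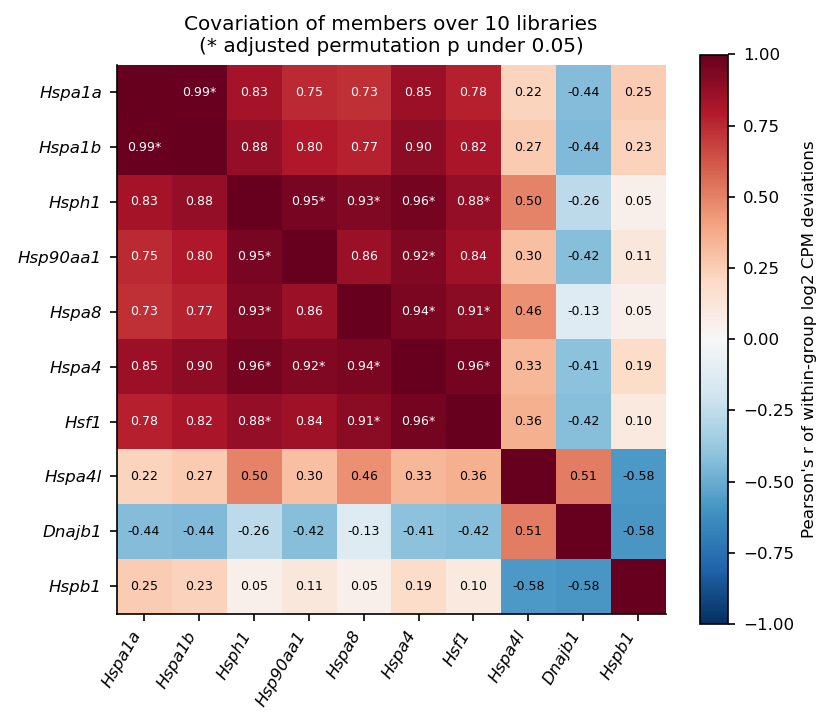
Pearson's r (colour and number) between log2 CPM deviations from the group mean for each pair of members over 10 libraries, with an asterisk where the adjusted exact permutation p is under 0.05. The 7 genes at the upper left, set apart because they form the pairs with an asterisk, are positively related to each other, from 0.73 to 0.99. Hspa4l, Dnajb1 and Hspb1 have values between -0.58 and 0.51 with them and with each other.

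Hspa4 and Hsf1 had r = 0.96 and Spearman's rho = 0.99 (adjusted permutation p = 0.00313 and 0.0125), and r was 0.97 without PBS replicates 3 and 5, the 2 libraries farthest from the median. Hspa4 and Hsph1 had r = 0.96 and rho = 0.88 (adjusted permutation p = 0.0161 and 0.0664), and r = 0.86 without those 2 libraries. Hsph1 and Hsp90aa1 had r = 0.95 and rho = 0.77, of which the second did not pass (adjusted permutation p = 0.0172 and 0.206). Hspa1a and Hspa1b had r = 0.99 (adjusted permutation p = 0.00313), and these near-identical copies may share reads. Neither copy passed with any other member. The pairs of Hspa1a with the 3 genes that follow rested on PBS replicates 1 and 5. Without these libraries r was 0.02 with Hspa8, 0.11 with Hsp90aa1 and -0.02 with Hsf1. For Hspa1b r without the same libraries was 0.18 with Hspa8, 0.34 with Hsp90aa1 and 0.14 with Hsf1. Over the 9 pairs r without the 2 farthest libraries lay between 0.73 and 0.97. The PBS group held 96.9% of the within-group sum of squares of Hsph1 and 90.5% of that of Hspa1a, but 18.2% of that of Dnajb1 and 16.1% of that of Hspb1. The count of 9 was 2 without PBS replicate 1, 3 or 5 and 5 without 4-HDHA replicate 3, while r of the 9 pairs was no lower than 0.79 without any 1 library. With Spearman's rho it was 5, among them 1 negative pair, Dnajb1 and Hsp90aa1 (rho = -0.73, adjusted permutation p = 0.0406), whose r of -0.42 did not pass.

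Proliferation markers varied beside some of these members, and in whole colon fewer cells of a type and less RNA per cell cannot be told apart. The 12 proliferation markers, which all had a negative log2 fold change and of which 0 passed, summed to 260, 457, 1546, 908 and 354 CPM in PBS replicates 1 to 5 and to 175, 239, 692, 177 and 282 CPM with 4-HDHA. Within both groups the library with the highest sum, replicate 3, was also the highest for Hsph1, Hsp90aa1, Hspa4, Hspa8 and Hsf1. Hspa1a, Hspa1b and Hspb1 were highest of the PBS group in replicate 3 too, but not of the 4-HDHA group. In 4-HDHA replicate 3 Hspa1a had 24.1 and Hspa1b 42.4 CPM, below 4-HDHA replicates 1, 2 and 4. Hspa4l and Dnajb1 did not follow that order, with 87.9 and 129.7 CPM in PBS replicate 1, where proliferation markers were lowest of the PBS group. Colon epithelium markers summed to between 15605 and 26967 CPM with PBS and between 16277 and 25811 CPM with 4-HDHA, lowest in replicate 3 of each group. Leukocyte markers lay between 122 and 241 CPM with PBS and between 140 and 495 CPM with 4-HDHA, and immediate early genes between 533 and 1103 and between 652 and 1246 CPM. Of the 13 epithelium markers 9 had a negative log2 fold change, of the 7 leukocyte markers 0 and of the 11 immediate early genes 7, with 0 called in each list and no gene of them at 0 in any library. Neutrophil markers (5 of 6 negative) lay between 14.9 and 462 CPM with PBS and between 18.5 and 324 CPM with 4-HDHA, and plasma cell markers (5 of 7 negative) between 592 and 908 and between 447 and 846 CPM. The part of these markers in the differences of the members was not tested.

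**Figure D3:**
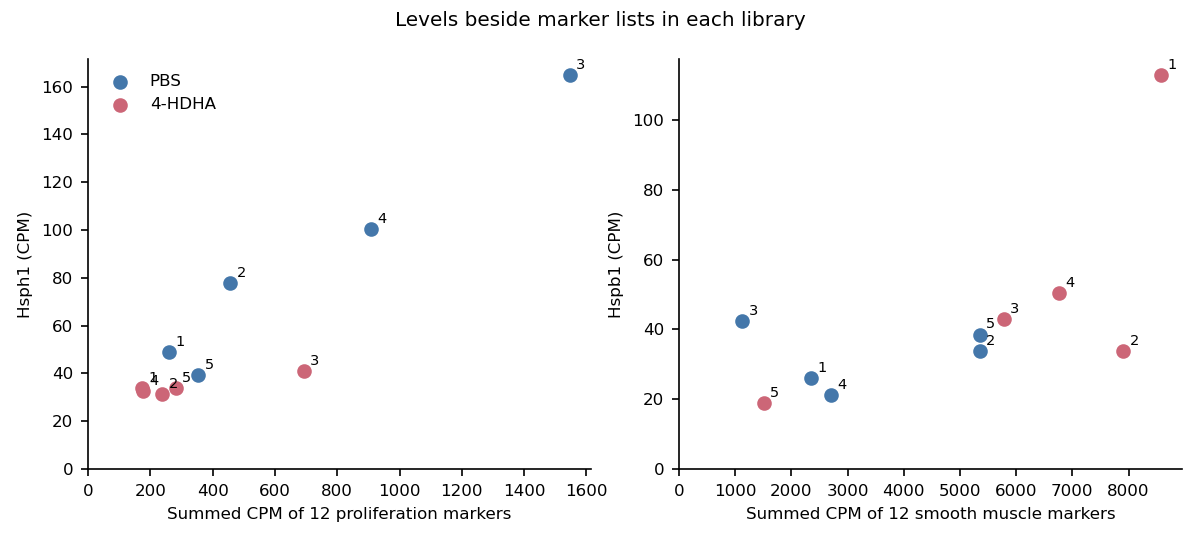
Left, Hsph1 (CPM) against the summed CPM of 12 proliferation markers, and right, Hspb1 (CPM) against the summed CPM of 12 smooth muscle markers, each point 1 library with its replicate number, PBS in blue and 4-HDHA in red. PBS replicate 3 is highest on both axes at the left (1546 and 165 CPM), and 4-HDHA replicate 1 on both axes at the right (8579 and 113 CPM).

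Hspb1 was set beside the markers of smooth muscle, all 12 of them with a positive log2 fold change and 0 of them called. They summed to 2352, 5350, 1126, 2700 and 5349 CPM in PBS replicates 1 to 5 and to 8579, 7909, 5784, 6765 and 1515 CPM with 4-HDHA. Within the 4-HDHA group the highest and lowest libraries for these markers, replicates 1 and 5, were also the highest and lowest for Hspb1. The order between them differed, since replicate 2, with 7909 CPM of markers, had only 33.8 CPM of Hspb1. Fibroblast and enteric neuron and glia markers were also lowest in replicate 5 of that group. In the PBS group the extremes did not match, since replicate 3 was lowest for smooth muscle markers and highest for Hspb1. Markers of other tissues of the colon wall and its surroundings mostly had positive log2 fold changes too, with 0 called. Positive were 9 of 9 fibroblast, 7 of 7 endothelium, 7 of 8 enteric neuron and glia, 6 of 6 adipocyte, 7 of 7 skeletal muscle and 7 of 8 squamous epithelium markers. Fibroblast markers summed to between 1130 and 2751 CPM with PBS and between 1609 and 7495 CPM with 4-HDHA, endothelium markers to between 53.3 and 92.3 and between 82.9 and 157 CPM, and enteric neuron and glia markers to between 19.7 and 51.3 and between 19.2 and 77.9 CPM. Adipocyte markers, 3 of which were at 0 in at least 1 library, summed to between 20.3 and 30.4 CPM with PBS and between 40.2 and 221 CPM with 4-HDHA. Skeletal muscle markers, 2 of which were at 0 in at least 1 library, lay between 3.43 and 69.2 and between 37.9 and 109.7 CPM. Squamous epithelium markers lay between 12.4 and 153 and between 79.9 and 255 CPM. The squamous epithelium sum alone among these lists had a lower median with 4-HDHA, 112 CPM against 126 CPM with PBS. The part of smooth muscle or of these other tissues in the difference of Hspb1 was not tested.

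The other genes of the chaperone network were taken from 10 lists with 136 genes, of which 133 were tested. None of the 133 passed edgeR's adjusted p of 0.05. At an unadjusted p under 0.05 there were 44 lower (7.45% of all genes were) and 8 higher (7.39% of all genes), and DESeq2 called 8 lower and 1 higher (0.613% and 1.09% of all genes). Of the 133, 89 had a negative log2 fold change, and the median was -0.15. The sum of 52 at an unadjusted p under 0.05 was 28 without PBS replicate 4, 33 without PBS replicate 3, 4-HDHA replicate 1 or 4-HDHA replicate 2, and 30 without 4-HDHA replicate 4.

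**Figure D4:**
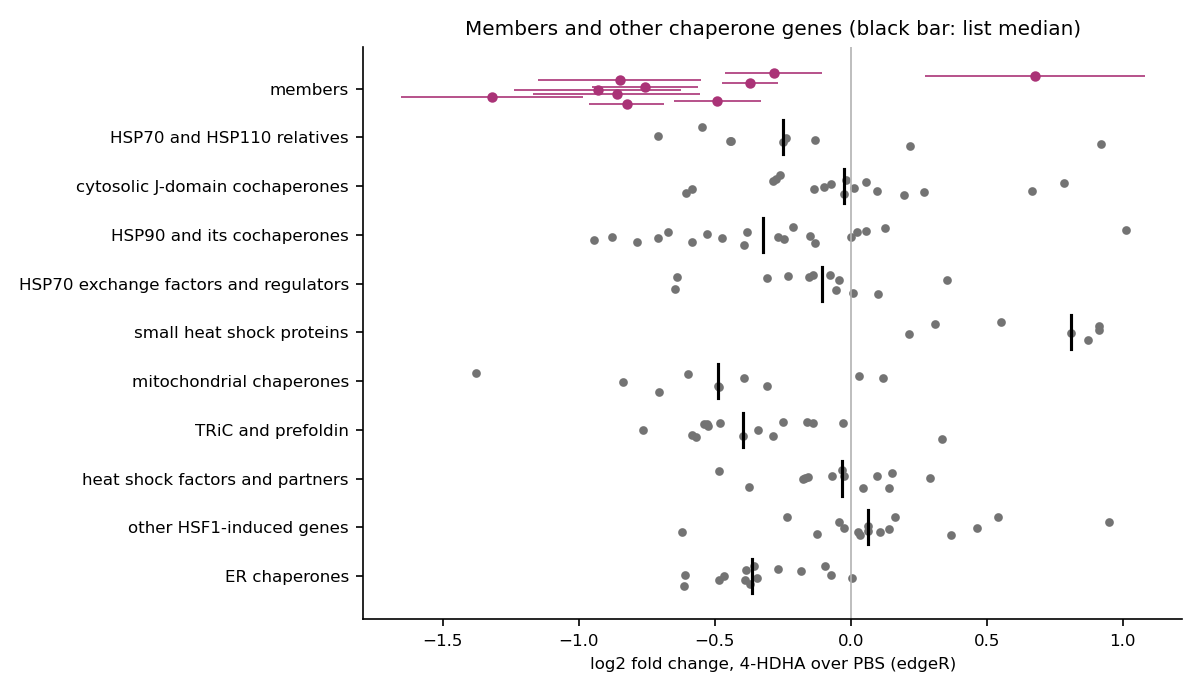
Log2 fold change of 4-HDHA over PBS for the 10 members (purple, with SE) and for 133 other chaperone genes in 10 lists (grey points, black bar the list median). Medians lie lowest for mitochondrial chaperones (-0.49) and TRiC and prefoldin (-0.39), and the small heat shock proteins lie to the right of 0 with a median of 0.81.

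HSP90 and its cochaperones lay mostly lower, with 15 of 20 below 0, a median of -0.32 and 0 called by edgeR. Chordc1, an HSF1-induced HSP90 cochaperone, had 62.3 ± 13.8 CPM in the PBS group against 39.1 ± 3.42 CPM in the 4-HDHA group (mean ± SD of 5 libraries each), and the log2 fold change was -0.67 (SE 0.15; edgeR adjusted p = 0.291). Stip1, which links HSP70 to HSP90, had -0.71 (edgeR adjusted p = 0.295). Unc45b, the myosin chaperone of striated muscle, lay the other way from 0.891 ± 0.191 to 1.80 ± 0.404 CPM (SD, n = 5 each; log2 fold change 1.01, edgeR adjusted p = 0.291). DESeq2 called Chordc1 and Unc45b and not Stip1. In the list of HSP70 exchange factors and regulators 9 of 12 were below 0 and 0 called by edgeR or DESeq2, with Hspbp1 at -0.65, Tomm70a at -0.64 and St13 at -0.31.

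Cytosolic J-domain genes were divided, with 10 of 17 below 0, a median of -0.02, 0 called by edgeR and 1, Dnaja1, by DESeq2. Dnaja1, a farnesylated HSP70 partner, had 195 ± 32.4 CPM in the PBS group against 128 ± 13.0 CPM in the 4-HDHA group (mean ± SD of 5 libraries each), and the log2 fold change was -0.61 (SE 0.13; edgeR adjusted p = 0.291), with each PBS library above each 4-HDHA library. Dnajc6, the neuronal auxilin, had 0.78 and Dnajc13, of endosomes, -0.28. Among the HSP70 and HSP110 relatives, 7 of 9 were below 0, with 0 called by edgeR and 1, Hyou1, by DESeq2. The endoplasmic reticulum genes Hyou1, the HSP110 of that compartment, and Hspa5, its HSP70, had -0.55 and -0.45, and the endothelial Hspa12b had 0.92.

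The small heat shock proteins other than Hspb1 lay higher, with 7 of 7 tested above 0, a median of 0.81 and 0 called by edgeR or DESeq2. One of the 7, Hspb9, lay only between 0.154 and 0.510 CPM. Hspb1 lay higher as well, but its log2 fold change was 0.18 without 4-HDHA replicate 1. Cryab, the alpha B crystallin, had 12.9 ± 4.27 CPM in the PBS group against 24.2 ± 10.6 CPM in the 4-HDHA group (mean ± SD of 5 libraries each), and the log2 fold change was 0.91 (SE 0.34; edgeR adjusted p = 0.309). Its neighbour on the genome Hspb2 had 0.91 and the muscle-rich Hspb7 had 0.87. Cryab was at 30.9, 25.8, 17.9, 36.7 and 9.94 CPM in 4-HDHA replicates 1 to 5. Replicate 5, the lowest of the 4-HDHA group in smooth muscle markers, was thus the lowest of that group for Cryab too. The highest differed, replicate 4 for Cryab and replicate 1 for the markers. The part of smooth muscle in this list was not tested either.

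Mitochondrial chaperones and the cytosolic chaperonin lay lower. Of 10 mitochondrial genes 8 were below 0, with 0 called by edgeR and 1, Clpb, by DESeq2. Clpb had a log2 fold change of -0.60, Grpel1 of -0.39 and Hspd1, the HSP60 chaperonin, of -1.38 (SE 0.46; edgeR adjusted p = 0.303). Hspd1 was at 116, 221, 624, 348 and 142 CPM in PBS replicates 1 to 5, highest in replicates 3 and 4 as were Hsph1 and Hsp90aa1. Of 15 genes of TRiC, the chaperonin of actin and tubulin, and prefoldin, which hands it clients, 14 were below 0 and 0 called by edgeR or DESeq2, with Cct3 at -0.76, Pfdn1 at -0.28 and Pfdn5 at 0.34. Heat shock factors and their partners had 8 of 13 below 0 and 0 called by edgeR or DESeq2, with Vcp, the segregase that draws ubiquitinated proteins apart, at -0.49, Hsf2 at 0.29 and Ep300 at -0.17.

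A list of further genes known to be induced by HSF1 had 5 of 16 below 0, a median of 0.06 and 0 called by edgeR or DESeq2. HSF1-induced chaperone genes placed in other lists, such as Chordc1, are not in it, so it does not describe HSF1 targets as a whole. Of the 16, Tcp11 lay only between 0.104 and 0.519 CPM and Mlf1 between 0.163 and 0.385 CPM. Mrpl18 had -0.62, Gadd45b 0.54 and the heme oxygenase gene Hmox1 0.95 (SE 0.51; edgeR adjusted p = 0.382). Bag3, which HSF1 induces strongly, belongs to the list of HSP70 exchange factors and regulators and is not among the 16. Its level was 79.8 ± 9.26 CPM in the PBS group against 72.5 ± 8.24 CPM in the 4-HDHA group (mean ± SD of 5 libraries each). The log2 fold change was -0.14 (SE 0.11, edgeR adjusted p = 0.537). Bag3 was named after its values were seen, so nothing about HSF1 is read from it. The chaperones of the endoplasmic reticulum had 13 of 14 below 0, with 0 called by edgeR and 4, Sdf2l1, Pdia4, Pdia6 and Hsp90b1, by DESeq2. Sdf2l1 had a log2 fold change of -0.61, Pdia4 of -0.61 and Pdia6 of -0.49. In 7 of the 14 each 4-HDHA library lay below each PBS library, where 1.63% of all genes tested did.

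The genes whose within-group deviations were most like those of Hspa4l over the 10 libraries, among 15476 others averaging 1 CPM or more, were Hsh2d, an adaptor of blood cells (r = 0.97), the lysosomal transporter gene Pqlc2 (0.95), Smcr8 (0.92), Prr14l (0.91) and Gm38394 (0.90). None is a chaperone gene by its name. For the mean of Hspa1a, Hspa1b, Hsph1 and Dnajb1 they were Gm45902 (r = 0.98), Jagn1 (0.96), Tssc4 (0.96), Prkrip1 (0.95) and Gpat4 (0.95). That mean carries little of Dnajb1, whose within-group SD was 0.14 log2 units against 0.57, 0.57 and 0.59 for Hspa1a, Hspa1b and Hsph1. Dnajb1 itself had r of -0.44, -0.44 and -0.26 with them. These are the highest of many correlations over 10 libraries and are given with no p.

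Depth ranged from 50915365 to 66470519 counts per library, and the lowest count of any member was 845, for Hsf1 in PBS replicate 5, so counting error was small beside the spread between libraries.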

How the data were processed

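Poly(A) RNA from whole colon was sequenced in 10 libraries, 5 per group. The deposited tables hold raw read counts per gene and FPKM values, both made by the authors. Per the submitters' processing notes cutadapt 1.9, HISAT2 2.0.4, StringTie 1.3.4d, edgeR and DESeq2 were used on mm10; their order, settings and use of strand were not found in the labels. StringTie-derived counts and FPKM can divide reads between the near-identical Hspa1a and Hspa1b in ways that cannot be traced.

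The members and all gene lists were chosen with earlier results of these data known. Counts of 55401 genes were filtered with filterByExpr (19615 kept), scaled by TMM and fitted with edgeR 4.0.16 (robust quasi-likelihood F test, Benjamini-Hochberg over all genes kept, threshold 0.05) in R 4.3.3, with group as the only term. CPM used TMM factors, and log2 CPM a prior count of 2. The p-values measure only the spread between these libraries. Genes named were every member, the 3 network genes of each list with the smallest edgeR p, and the 5 genes most like Hspa4l or the mean of the heat-inducible members. Hsp90b1 was named because DESeq2 called it, and Bag3 after its values were seen. Correlations used exact permutation in Python 3.11.15. DESeq2 1.42.0, limma 3.58.1 (voom, and trend on log2 FPKM with a pseudocount of 1 or 0.1), other scalings, no filter, a replicate block and leaving out each library were alternatives. The fits and the permutation were tested on simulated data. Promoters came from RefSeq, and 9 of 10 members lay at the same position in GENCODE M21. Replicate numbers did not pair the libraries, with correlations of same-numbered deviations from -0.316 to 0.0836. Depth was 50915365 to 66470519 counts per library.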

Additional observations from a re-analysis of the deposited data

Results flagged for a closer look

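In 4 of the 20 groups of 5 libraries examined (10 members in 2 groups), 1 library stood farther from the rest than Dixon's critical value of 0.71 of the group's range, where chance gives about 1 in 20 groups. All 4 were 4-HDHA libraries. Replicate 5 stood above the other 4-HDHA libraries for Hspa4l, at 56.3 CPM, and for Dnajb1, at 113 CPM. Replicate 3 stood above them for Hsph1, at 40.9 CPM, and for Hsp90aa1, at 251 CPM. Replicate 5 was the 4-HDHA library with the lowest smooth muscle sum (1515 CPM) and the highest leukocyte sum (495 CPM), and replicate 3 the one with the highest proliferation sum (692 CPM). The part of these markers in the 4 values was not tested.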

How the results depend on the processing

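The 10 member differences were recomputed under 20 alternative settings each (19 for Hspa1b), which gave 199 values in all. Of these values 0 changed sign, and 0 moved by more than 1 within-group SD of log2 CPM of the same gene. That SD was 0.72 for Hspb1 and 0.59 for Hsph1, so the limit was loose for members with a wide spread. Leaving out single libraries gave log2 fold changes from -0.92 to -0.78 for Hspa4l, -0.58 to -0.36 for Hspa4, -1.51 to -0.95 for Hsph1, -1.04 to -0.67 for Hspa1a, -1.11 to -0.71 for Hspa1b, -0.86 to -0.60 for Hspa8, -0.46 to -0.34 for Dnajb1, -1.01 to -0.54 for Hsp90aa1, 0.18 to 0.89 for Hspb1 and -0.39 to -0.19 for Hsf1. Genes called numbered 0 in edgeR and limma under each setting, with 0 to 0 when single libraries were left out, and 312 by DESeq2; chaperone network genes called numbered 0, 0 to 0 and 9 by DESeq2. With replicate number as a block edgeR called 0 genes and 0 network genes, and the best match of a library carried its own number in 0 of 5 PBS and 1 of 5 4-HDHA libraries, so the numbers give no pairing. The count of correlated member pairs, 9, was 17 on log2(FPKM + 0.1), 16 with library totals alone, 5 with Spearman's rho, and 2 to 11 with single libraries left out; the cause was not tested. The lowest count of any member was 845, so counting error was small for the members; the effect of the number of libraries was not tested.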
